A study of Oryza sativa with 12 samples.

Results

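The genes described here encode rice enzymes of 3 linked parts of metabolism: the shikimate kinases SK1, SK2 and SK3, the S-adenosylmethionine synthetases SAM1, SAM2 and SAM3, and the cytochrome P450 enzyme CYP71P1. SK2 was singled out in earlier results because it was higher in OsMYB30 overexpression lines than in their control before cold, and CYP71P1 and SAM2 because they were higher there after 6 h of cold. The other names are numbered members of the same 2 enzyme families. A probe set was taken where it was paired with only 1 gene and that gene carried a listed name as its symbol or synonym. Of 7 names, 6 matched a gene and SAM3 matched none, which left 6 of 17905 genes with such a probe set. Their differences between overexpression and control arrays are therefore given as descriptions without a test, and nothing is supported with them.

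Shikimate kinase adds a phosphate to shikimate on the route from primary sugars to chorismate, from which plants make phenylalanine, tyrosine and tryptophan. S-adenosylmethionine synthetase joins methionine and ATP to give the cell's main methyl donor, which is also used for ethylene, polyamines and nicotianamine and for methylating lignin precursors. CYP71P1 of rice is the tryptamine 5-hydroxylase that completes serotonin synthesis from tryptophan, and loss of the enzyme is known for the Sekiguchi lesion phenotype of rice leaves. The annotation lists SL and T5H among its synonyms.

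RNA from shoots and leaves of rice at the 4-leaf stage was hybridised to 12 arrays of the Affymetrix rice GeneChip type, 1 for each sample. Lines OE2 and OE28, of the ZH11 cultivar, overexpress the MYB transcription factor OsMYB30 and stood beside 1 ZH11 control line. Mutant 1 and mutant 2, of the Huayang cultivar, are homozygous osmyb30 mutants and stood beside 1 wild type line. These 6 lines gave 1 sample each at the start and 1 after 6 h in cold at 4 °C, with a day of 14 h light and 10 h dark in the cold chamber. A group thus held 2 arrays of an overexpression or mutant line pair, or 1 array of a control. The promoter that drives the transgene and the nature of the mutation are not stated in the labels, nor is whether a sample pooled several plants, so p-values measure only the spread between these samples.

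Array medians lay between 34.6 and 37.15. No probe set of 1 gene is paired with OsMYB30, so its own transcript was not analysed here. Of 64 probe sets for reporter and selection genes, 2 were bright in part of the plants and the others read at most 73.9, a level called dim below. One of the bright ones, RPTR-Os-K01193-1_at, gave 2658.5 and 3821.8 in the Huayang wild type, the only comparator of the mutants. The mutants gave 13835.2 to 17781.9 and the ZH11 control no more than 64.3. The summed intensity of 4 green tissue marker genes, of which 1 was dim on all arrays, lay between 55681.1 and 57955.4. The sum of 10 root markers, of which 6 were dim on all arrays, was 1023 to 1506.2 in ZH11 lines before cold and 713.1 to 1041 at 6 h. In Huayang lines it was 2352 to 2497.3 before cold and 1235 to 2265.4 at 6 h. Both endosperm markers were dim. In such tissue samples, fewer cells of a type and less RNA per cell cannot be told apart.

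The 6 genes had 8 probe sets, of which 6 passed the filter, 1 for each gene. That filter kept probe sets whose mean reached the 40th percentile, so some that were dim on all arrays also passed. The other probe set of CYP71P1 read 8.2 to 11.3 and the other one of SAM2 read 6.5 to 12.4, both within the dim range on all 12 arrays. SK3 was read by a probe set whose name suffix marks it as able to match transcripts of more than 1 gene, so its values may include a relative. A further synthetase record, METK3, was looked up after the values were known and read 34.2 to 49.3, dim on every array. Levels below are deposited linear intensities. Differences are on the log2(intensity + 16) scale after quantile normalisation, on which a change near the dim level looks smaller than it is. Fold values are taken from these differences, so they are not ratios of deposited intensities. The error beside a difference is the standard error (SE) of the limma fit.

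**Figure D1:**
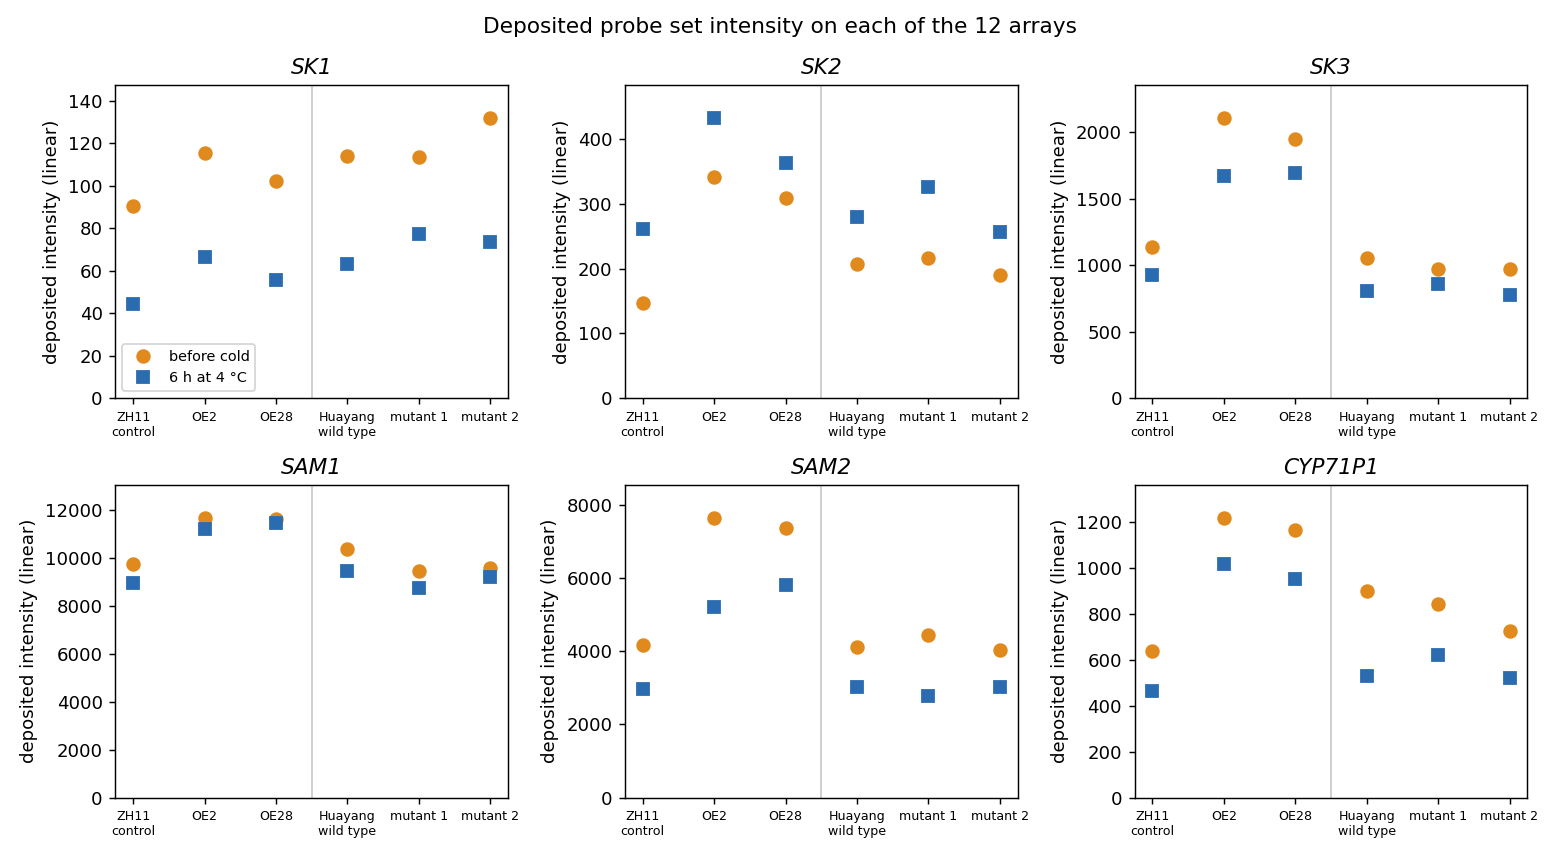
Deposited linear intensity (vertical axis, starting at 0) of each gene on the 12 arrays, by line, with circles before cold and squares after 6 h at 4 °C. For SK3, SAM1, SAM2 and CYP71P1 the 4 overexpression arrays lie above the other 8, while for SK1 the times separate and the genotypes do not.

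SK3 read 2105.3 (OE2) and 1948.7 (OE28) before cold and 1670.2 and 1695.2 at 6 h. The ZH11 control read 1136.9 and 928.1 at these times. In Huayang, the wild type read 1058.0 and 805.3, mutant 1 read 972.9 and 858.5, and mutant 2 read 974.3 and 779.0. The overexpression arrays stood clear of all 8 others, and among the rest the control before cold was the highest. On the normalised scale the overexpression lines stood at 1.68-fold the control before cold (log2 difference 0.74) and 1.74-fold at 6 h (0.80). The mean of both times was 0.77 ± 0.06 (SE).

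SK2 read 342.0 and 309.7 in OE2 and OE28 before cold, and 432.0 and 363.9 at 6 h. The ZH11 control read 146.3 before cold, the lowest of the 12 values, and 261.1 at 6 h. The wild type read 207.5 and 280.2, mutant 1 read 216.7 and 326.4, and mutant 2 read 189.8 and 256.9. SK2 was thus higher at 6 h than before cold in every line, and its overexpression values before cold overlapped the Huayang values at 6 h. On the normalised scale the overexpression lines stood at 1.92-fold the control before cold (0.94 ± 0.15, SE) and 1.44-fold at 6 h (0.52 ± 0.15, SE). As ratios of deposited intensities, OE2 and OE28 stood at 2.34-fold and 2.12-fold before cold, and at 1.65-fold and 1.39-fold at 6 h.

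SK1 was close to the dim level. It read 115.2 and 102.3 in OE2 and OE28 before cold and 66.4 and 55.4 at 6 h, beside 90.6 and 44.1 in the control. The wild type read 113.9 and 63.0, mutant 1 read 113.6 and 77.1, and mutant 2 read 131.6 and 73.5. The overexpression and control arrays overlapped, unlike those of the other 5 genes. The difference from the control was 0.15 ± 0.13 (SE) before cold and 0.38 ± 0.13 (SE) at 6 h.

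SAM2 read 7626.2 and 7346.6 in OE2 and OE28 before cold, and 5216.8 and 5815.7 at 6 h. The control read 4177.8 and 2978.6, the wild type 4122.3 and 3032.7, mutant 1 4441.6 and 2787.4, and mutant 2 4031.0 and 3013.1. Even at 6 h the overexpression arrays were above the arrays before cold of all lines that do not overexpress OsMYB30. The 4 lines that do not overexpress OsMYB30 lay within 4031.0 to 4441.6 before cold and within 2787.4 to 3032.7 at 6 h. On the normalised scale the overexpression lines stood at 1.73-fold the control before cold (0.79 ± 0.10, SE) and 1.85-fold at 6 h (0.89 ± 0.10, SE).

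SAM1 read 11663.1 and 11610.4 in OE2 and OE28 before cold, and 11211.8 and 11450.1 at 6 h. The control read 9773.3 and 8963.6, the wild type 10374.6 and 9466.4, mutant 1 9464.4 and 8746.6, and mutant 2 9579.5 and 9231.5. The overexpression arrays again lay above the other 8. Against the control they stood, on the normalised scale, at 1.16-fold before cold (0.22 ± 0.06, SE) and 1.24-fold at 6 h (0.31 ± 0.06, SE). The highest value outside these lines was the wild type before cold.

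CYP71P1 read 1215.4 and 1165.0 in OE2 and OE28 before cold, and 1015.0 and 951.4 at 6 h. The control read 639.3 and 465.5, the wild type 901.1 and 529.9, mutant 1 842.5 and 619.9, and mutant 2 725.3 and 522.4. The ZH11 control was the lowest line at both times, and the overexpression lines were the highest. On the normalised scale the overexpression lines stood at 1.72-fold the control before cold (0.78 ± 0.12, SE) and 2.00-fold at 6 h (1.00 ± 0.12, SE).

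Across the 6 genes the median difference between overexpression lines and control was 0.76 before cold, 0.66 at 6 h and 0.75 as the mean of both times, beside medians near 0 over all 34355 probe sets. For 4 of the 6 genes the 4 overexpression arrays lay above all other 8, which held for 2.03% of probe sets. The list was chosen on measured values, those of SK2, CYP71P1 and SAM2 in this comparison being known at the time, so nothing is read from this count. Each overexpression value rests on 1 control array per time, and the single control line is assumed to vary like the other groups. The summed root markers were also lowest in the control at both times. They were 1023 beside 1506.2 (OE2) and 1308.3 (OE28) before cold, and 713.1 beside 1041 and 882.2 at 6 h. Among these markers NAAT1 had the widest range, 301.7 to 1896.5, and no other read above 305.8. Of the 8 that passed the filter, 4 were higher and 4 lower in the overexpression lines before cold. At 6 h it was 7 and 1, and for the mean 5 and 3. Only NAAT1 was called, as higher for the mean (0.65, adjusted p = 0.00784 in limma), where 2.17% of all probe sets were. The part of root tissue in the differences above was not tested.

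Both overexpression lines agreed in sign at both times for every gene. The line-wise differences from the control ran from 0.70 to 0.81 for SK3, from 0.77 to 0.98 for SAM2, from 0.76 to 1.03 for CYP71P1 and from 0.20 to 0.32 for SAM1. Those of SK2 ran from 0.42 to 0.98 and those of SK1 from 0.10 to 0.49. The difference for SK2 was smaller at 6 h than before cold by 0.42 on the log2 scale (SE 0.22), with a cold difference of 0.84 in the control and of 0.48 and 0.36 in OE2 and OE28. SK2 was chosen by its difference before cold, and CYP71P1 and SAM2 by theirs at 6 h, so nothing is read from such changes. That of SK2 also rests on the single control array before cold, at 146.3 the lowest of its 12 values. For the other 5 genes the change of the difference lay between 0.05 and 0.24.

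**Figure D2:**
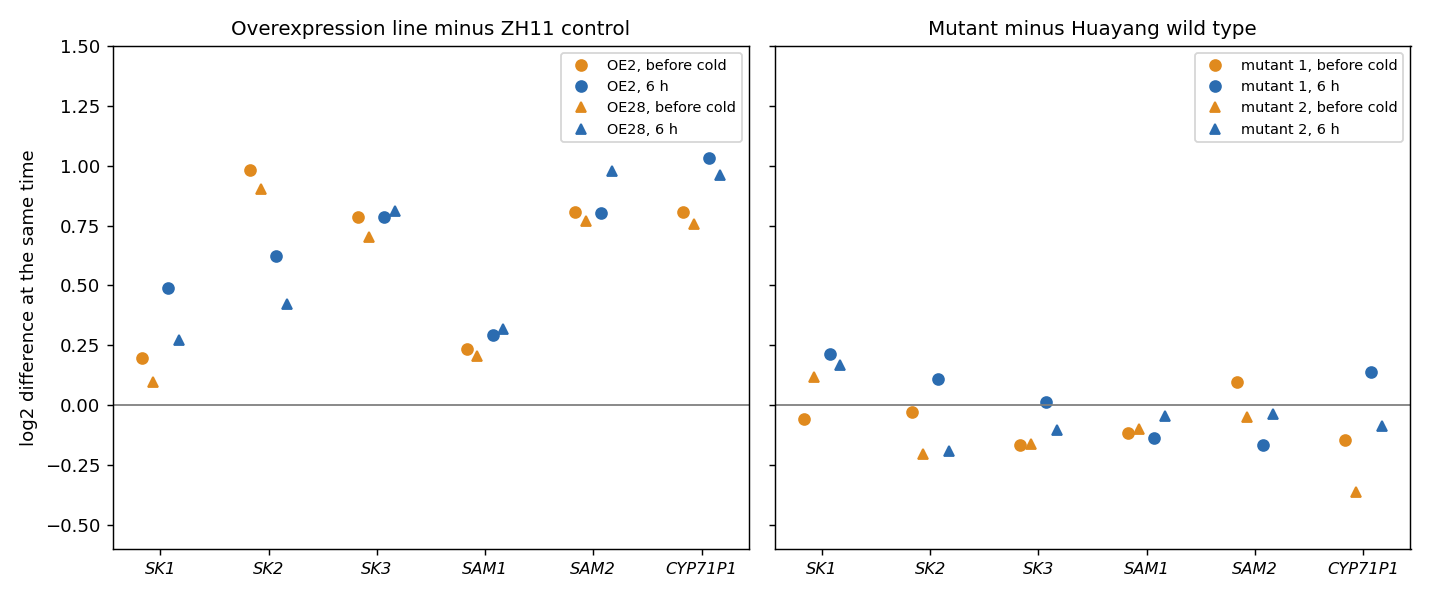
Log2 difference of each altered line from the control line of its cultivar at the same time, for the 6 genes, with overexpression lines on the left and mutants on the right. All 24 overexpression differences lie above 0, from 0.10 to 1.03, whereas the mutant differences lie between -0.36 and 0.21.

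The study set the mutants beside the Huayang wild type to find genes that differ where OsMYB30 is mutated. None of the 6 genes was called in limma (Benjamini-Hochberg adjusted p below 0.05) before cold, at 6 h or for the mean, where 0.00291%, 0.0204% and 0.0262% of probe sets were called. An unadjusted p under 0.05 in limma was reached by none of the 6 at either time and by SAM1 for the mean. As a mean of both times the difference from the wild type was -0.10 for SK3 (95% interval -0.24 to 0.03), -0.08 for SK2 (-0.33 to 0.17) and 0.11 for SK1 (-0.11 to 0.33). It was -0.04 for SAM2 (-0.20 to 0.12) and -0.11 for CYP71P1 (-0.32 to 0.09). Each of these 5 intervals holds 0. The lowest bound among them is the -0.33 of SK2. The list was chosen with overexpression differences known, so the intervals are not measured against those differences. The mutants and the overexpression lines are in different cultivars.

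SAM1 was lower in the mutant in 4 of 4 comparisons of a mutant with the wild type at the same time, by 0.05 to 0.14 on the log2 scale. The mean was -0.10 ± 0.04 (SE, 95% interval -0.19 to -0.0046, unadjusted p = 0.0419, adjusted p = 0.385 in limma), which did not pass. Of the differences at a single time, that of CYP71P1 before cold was the largest in size at -0.25 ± 0.12 (SE, adjusted p = 0.929 in limma), and at 6 h it was 0.02. No gene had a called difference between the cold responses of mutants and wild type, where limma called 0% of all probe sets (0 of 34355) and 1006, none of them of the 6 genes, had an unadjusted p under 0.05. These fits take the 2 arrays of a line as independent. With the line as a random replicate block, which pairs them, the SE of the SAM1 mean was 0.049. The SAM1 interval that just leaves out 0 belongs to the fit without the block, and none was computed with it. The wild type is 1 line with 1 array per time, and its partial reading of the reporter probe set given above stands beside all these values. The part of that signal in the mutant comparisons was not tested.

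Over 6 h in the cold the 6 genes moved in both directions. SK2 was higher at 6 h in 6 of 6 lines and the other 5 genes were lower in 6 of 6 lines, while 19.0% of all probe sets were higher and 22.7% lower in all 6 lines. In the fit over all lines (6 arrays against 6, cultivar as a term), limma called SK2 higher by 0.56 ± 0.16 (SE, adjusted p = 0.0136). It called SK1 lower by a log2 difference of -0.64 ± 0.08 (SE, adjusted p = 4.90e-05) and SAM2 lower by -0.50 ± 0.16 (SE, adjusted p = 0.0288). In this contrast 14.9% of probe sets were called higher and 20.2% lower, so 1 higher and 2 lower of 6 is near the background.

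SK1 was the only one of the 6 whose times did not overlap. Its 6 values before cold lay between 90.6 and 131.6 (median 113.75) and those at 6 h between 44.1 and 77.1 (median 64.7), a separation in this direction that 8.93% of probe sets showed. Since 5 of the 6 values at 6 h were at or below the dim level of 73.9, the size of the fall is not established. With readings below that level raised to it, the difference was still -0.49. Raised in this way it was -0.40 in ZH11 lines and -0.57 in Huayang lines. Without raised readings and after quantile normalisation, the difference by line ran from -0.86 in the ZH11 control to -0.42 in mutant 1. The control at 6 h gave the lowest reading, 44.1, so the order of lines and cultivars is not established.

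SK2 ran against the other shikimate kinases. Its values before cold lay between 146.3 and 342.0 (median 212.1) and at 6 h between 256.9 and 432.0 (median 303.3), and its range by line was 0.36 in OE28 to 0.84 in the ZH11 control. The overlap came from the overexpression lines, which started higher. Without quantile normalisation the call was lost, at 0.45 (adjusted p = 0.0579 in limma) on the values as deposited and 0.43 with arrays centred on their medians (adjusted p = 0.0815). The direction held in both.

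SAM2 lay between 4031.0 and 7626.2 before cold (median 4309.7) and between 2787.4 and 5815.7 at 6 h (median 3022.9). Every line was lower at 6 h, from -0.34 in OE28 to -0.70 in mutant 1. The call was lost in limma in 4 of the 12 runs that left out 1 array, namely OE2 or OE28 before cold and mutant 1 at either time (-0.44 to -0.48, adjusted p 0.0536 to 0.0655). For CYP71P1 the difference was -0.39 ± 0.18 (SE, adjusted p = 0.113 in limma), and by line it ran from -0.20 in OE2 to -0.67 in the wild type. SK3 (-0.26 ± 0.15, SE) and SAM1 (-0.11 ± 0.06, SE) did not pass either, with adjusted p = 0.201 and 0.166 in limma.

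**Figure D3:**
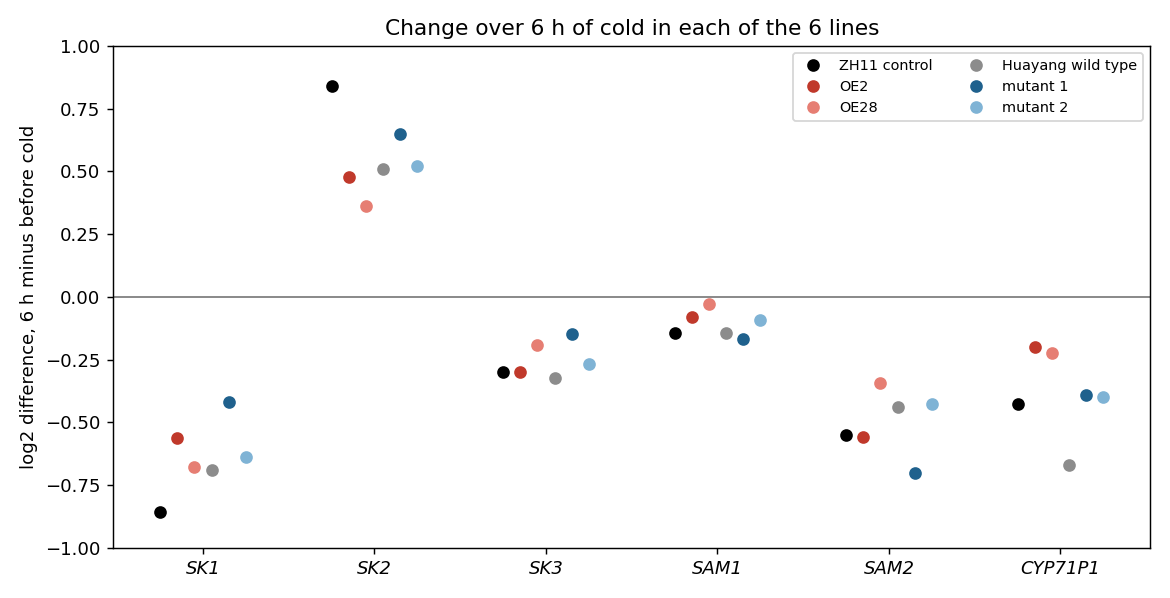
Log2 difference between 6 h of cold and before cold (vertical axis) for each gene in each of the 6 lines, 1 point per line. SK2 lies above 0 in all 6 lines, from 0.36 to 0.84, and the other 5 genes lie below 0 in all 6 lines, with SAM1 closest to 0.

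These calls count the lasting differences between lines as error. Each line was sampled at both times, so the labels pair the arrays, and with the line as a fixed replicate block limma called all 6 genes, 1 higher and 5 lower. Adjusted p ran from 1.30e-05 for SAM2 to 0.00756 for SAM1, with CYP71P1 at 0.000533, SK3 at 0.000266, SK2 at 6.09e-05 and SK1 at 2.40e-05. The differences themselves were the same, and the background rose to 20.6% called higher and 25.3% called lower. The labels do not give the time of day or the light at sampling, so either could differ between the times and cannot be told apart from cold.

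Within each cultivar (3 lines, 3 arrays against 3) only SK1 passed in limma, at -0.70 ± 0.12 (SE, adjusted p = 0.00125) in ZH11 lines and -0.58 ± 0.12 (SE, adjusted p = 0.00412) in Huayang lines. That is 1 lower of 6 in ZH11 lines, where 7.46% of probe sets were called higher and 12.6% lower, and 1 of 6 in either direction in Huayang lines, where 19.3% were. With the line as a fixed block, 1 gene was called higher and 4 lower in ZH11 lines, where SAM1 did not pass (adjusted p = 0.114), beside 13.7% and 20.1% of probe sets. In Huayang lines the block gave 1 higher and 5 lower, beside 12.9% and 18.0%. SK2 differed by 0.56 in each cultivar, SAM2 by -0.48 and -0.52, SK3 by -0.26 and -0.25, CYP71P1 by -0.28 and -0.49, and SAM1 by -0.08 and -0.13, ZH11 first. The cold response of none of the 6 genes was called different between cultivars, where 0.102% of probe sets were and none of the 6 had an unadjusted p under 0.05, and the interval of that difference was widest for CYP71P1, from -0.60 to 1.01.

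Comparing the 3 ZH11 lines with the 3 Huayang lines at the same time carries the overexpression difference with it, since 2 of the ZH11 lines are overexpression lines. In limma SK3 was called higher in ZH11 lines at 6 h by 0.75 ± 0.22 (SE, adjusted p = 0.0496), where 4.76% of probe sets were called higher and 5.84% lower. Between the control line and the wild type line alone it was 0.19 (adjusted p = 0.322 in limma, 1 array each), and the call ended under 6 further settings and in 9 of the 12 runs that left out 1 array (adjusted p 0.0518 to 0.186). Before cold none of the 6 was called, although 2 had an unadjusted p under 0.05 in limma (SAM2 at 0.57 and SK3 at 0.77, adjusted p = 0.251 and 0.0712), beside 2.28% of probe sets called higher and 2.97% lower. With the line as a random replicate block SK3 passed then too (adjusted p = 0.0290). SK1 was the only gene that read lower in ZH11 lines at both times, at -0.19 ± 0.12 (SE) before cold and -0.31 ± 0.12 (SE) at 6 h, neither called in limma (adjusted p = 0.497 and 0.131).

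The order of the 8 groups of line type and time differed by gene. SK3, SAM1, SAM2 and CYP71P1 had the overexpression lines before cold first and the same lines at 6 h second. The list was chosen with overexpression differences known, and the share of all probe sets in this order was not counted. Nothing is therefore read from it. For SAM2 the 3 groups that followed (control, mutants and wild type before cold) did not separate, and the last, the mutants at 6 h, overlapped the control at 6 h. For SK2 the order opened with the overexpression lines at 6 h, followed by these lines before cold, the wild type at 6 h and the mutants at 6 h, which overlapped. For SK1 it opened with the mutants and the wild type before cold, which overlapped, and closed with the control at 6 h.

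Other genes around these steps were taken from a list of related enzymes, of which 20 had a probe set of 1 gene that passed the filter: 3 of the shikimate route, 9 of tryptophan and serotonin synthesis, and 8 that recycle or use S-adenosylmethionine. In the overexpression comparison 1 of 20 was called higher and none lower in limma at either time and for the mean, beside 0.384%, 0.230% and 2.17% of probe sets called higher before cold, at 6 h and for the mean. An unadjusted p under 0.05 was reached by 4, 4 and 8 of the 20, and by 7256, 3485 and 8511 of 34355 probe sets. The related list was also chosen with earlier results of these data known, so nothing is supported with this call. The called gene was DAHPS1, which encodes the enzyme that opens the shikimate route. It read 5657.0 and 5644.7 in OE2 and OE28 before cold and 5086.8 and 5307.2 at 6 h, beside 3439.6 and 2886.5 in the control. In Huayang, the wild type read 3195.7 and 2592.8, mutant 1 3495.6 and 2674.7, and mutant 2 2974.3 and 2769.8.

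All 4 overexpression values of DAHPS1 lay above the other 8. The difference was 0.67 ± 0.09 (SE, adjusted p = 0.0322 in limma) before cold, 0.84 ± 0.09 (SE, adjusted p = 0.0128) at 6 h and 0.76 ± 0.07 (SE, adjusted p = 0.00175) for the mean. Without OE2 or OE28 at 6 h the call at 6 h was lost (adjusted p = 0.0841 and 0.109). The call before cold was lost without any 1 of the 4 overexpression arrays and in limma without the trend (adjusted p 0.0561 to 0.124), while that for the mean passed in all alternatives run.

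For DAHPS2, a second gene of this enzyme, the 2 probe sets disagreed. The brighter by mean differed by 0.10 before cold and -0.08 at 6 h (adjusted p = 0.415 and 0.739 in limma). Its name suffix is that of the SK3 probe set, so its values may include a relative. It stands for the gene in the counts of related genes. The other read 5044.1 and 4732.5 in OE2 and OE28 before cold against 2348.3 in the control, and 4388.0 and 4375.6 at 6 h against 2726.8. Its differences of 1.01 ± 0.08 and 0.67 ± 0.08 (SE) had adjusted p = 0.00146 and 0.0128 in limma. MTR1, the remaining gene of this group, differed by -0.0035 at 6 h.

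Of the serotonin group the 3 largest differences in the overexpression comparison at 6 h were 0.54 ± 0.40 (SE) for ASMT3, 0.20 ± 0.09 for OASB2 and 0.18 ± 0.09 for SNAT, and none of its 9 genes passed. TDC2, a tryptophan decarboxylase gene whose enzyme makes the tryptamine that CYP71P1 hydroxylates, differed by -0.06 ± 0.14 (SE) at 6 h. Of the S-adenosylmethionine group the largest were NAS1 (2.203 ± 0.90, SE), NAS2 (1.60 ± 0.69) and NAS3 (-0.79 ± 0.28), nicotianamine synthase genes, and none of its 8 genes passed. NAS1 read 8.3 and 9.8 in the control, 157.5 and 197.0 in OE2, and 27.1 and 46.6 in OE28, so the 2 overexpression lines differed widely. Since the control and OE28 were within the dim range, the size of the NAS1 difference is not established. ASMT3, at 60.7 in the control at 6 h, was also partly dim.

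**Figure D4:**
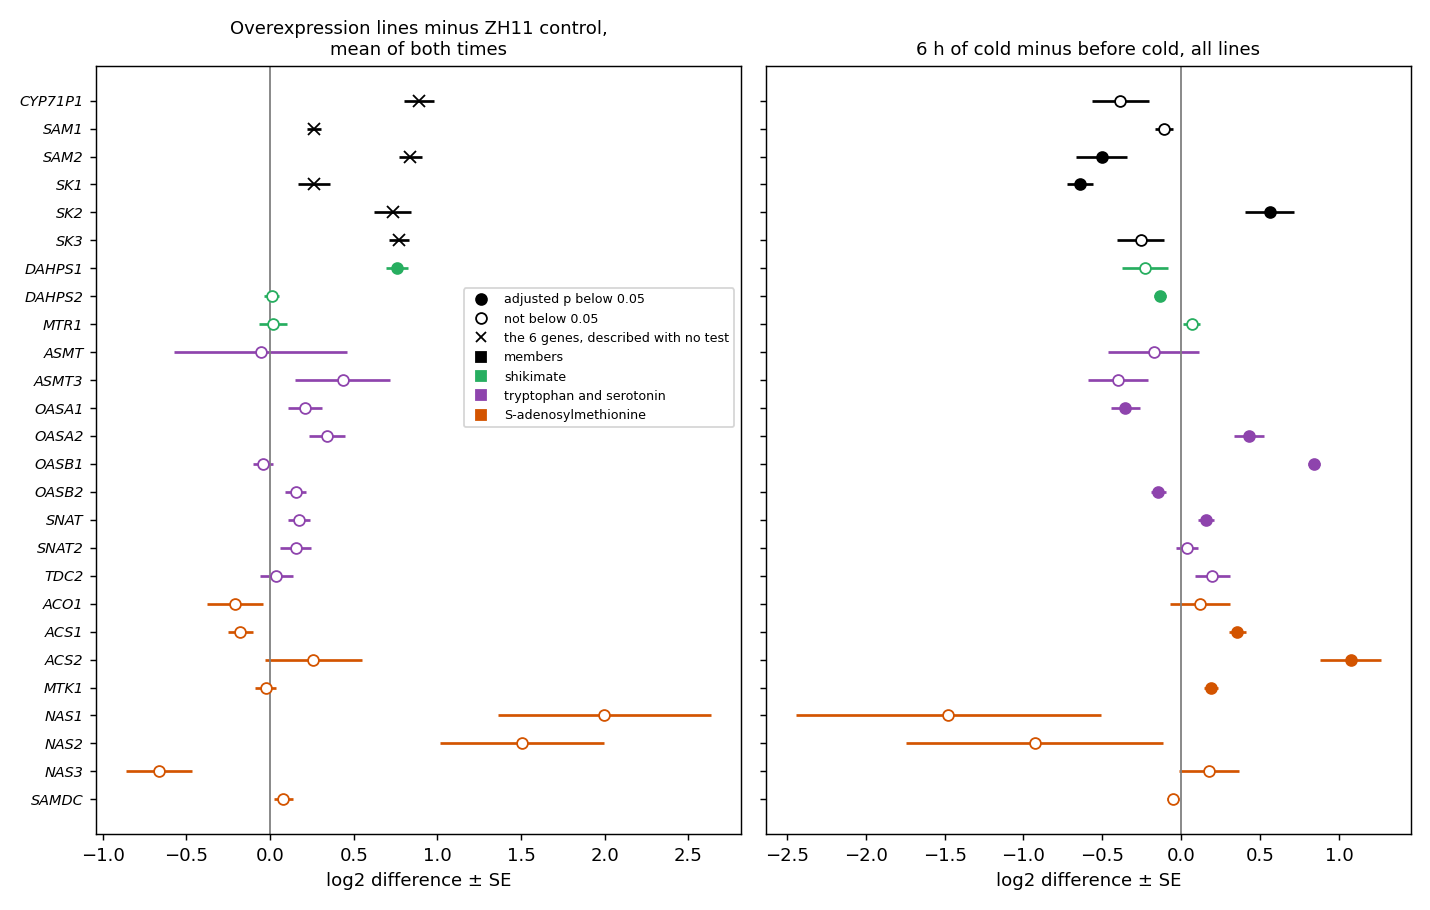
Log2 difference ± SE (horizontal axis) of the 6 genes and the 20 related genes, for overexpression lines against control as the mean of both times (left) and for 6 h of cold in all lines (right). Filled circles passed limma at an adjusted p below 0.05, open circles did not, and crosses mark the 6 genes where they are described with no test. On the left DAHPS1 is the filled circle, and on the right both directions hold filled circles.

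In the cold, over all lines, limma called 6 of the 20 related genes higher and 3 lower, beside the shares of 14.9% and 20.2% given above. Anthranilate synthase, the first enzyme on the branch to tryptophan, had members on both sides. The beta subunit gene OASB1 read 818.3 to 1232.4 before cold and 1532.7 to 2212.7 at 6 h, without overlap, and rose by 0.84 ± 0.04 (SE, adjusted p = 3.98e-09 in limma). The alpha subunit gene OASA2 rose by 0.43 ± 0.10 (SE, adjusted p = 0.00401), a call lost with arrays centred on their medians (0.29, adjusted p = 0.0669). The other alpha subunit gene, OASA1, fell by 0.35 on the log2 scale (SE 0.09, adjusted p = 0.00879), and the beta subunit gene OASB2 changed by -0.15 (adjusted p = 0.0345), a call lost without any 1 of 7 arrays and without the filter.

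The others called higher were the ACC synthase genes ACS2 (1.07) and ACS1 (0.36), the methylthioribose kinase gene MTK1 (0.19) and SNAT (0.16), and DAHPS2 was lower (-0.14). ACS1 was dim on all arrays, at 19.7 to 39.4, and ACS2 read 22.8 to 103.8, so the sizes of these changes are not established. MTK1 lost its call with arrays centred on their medians (0.14, adjusted p = 0.0657 in limma). SNAT lost its call on the values as deposited and with median centring (0.086 to 0.11, adjusted p 0.214 to 0.384 in limma) and in 4 runs that left out 1 array (OE2 at 6 h, OE28 at either time or mutant 2 before cold, adjusted p 0.0531 to 0.0621). The other probe set of DAHPS2 differed by -0.0017 ± 0.16 (SE). For SAMDC, which encodes the enzyme that commits S-adenosylmethionine to polyamines, the brighter probe set read 6599.5 to 7769.6 and differed by -0.05 ± 0.04 (SE). Its other probe set read 155.9 to 318.5 before cold and 474.5 to 545.1 at 6 h, a difference of 1.27 ± 0.11 (SE, adjusted p = 2.00e-06 in limma).

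Within ZH11 lines 5 related genes of 20 were called higher and 1 lower in the cold, beside 7.46% and 12.6% of probe sets, and within Huayang lines 3 of 20 were called in either direction, all higher, beside 19.3%. In ZH11 lines ACS1, ACS2, MTK1, OASA2 and DAHPS2, the one called lower, each lost the call in at least 1 alternative, and in Huayang lines ACS2 did without the wild type at 6 h. OASB1 passed in both cultivars in all alternatives run. No related gene was called between mutants and wild type at either time or for the mean, with 0, 5 and 5 of the 20 at an unadjusted p under 0.05 in limma, beside 1736, 3271 and 4310 of 34355 probe sets. At 6 h NAS1 read 59.8 and 35.1 in the mutants and 1815.2 in the wild type, and NAS2 read 160.2 and 168.6 against 2783.9 (adjusted p = 0.224 and 0.211 in limma). The summed root markers at 6 h were 1330 and 1235 in the mutants and 2265.4 in the wild type. Of the 8 that passed the filter, 3 were higher and 5 lower in the mutants. Only NAAT1 was called, as lower, where 0.0116% of all probe sets were. The part of root tissue in the NAS1 and NAS2 values at 6 h was not tested. Before cold the mutants and the wild type overlapped for both, at 1176.0 to 2735.8 for NAS1 and 1793.6 to 4291.1 for NAS2.

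Between the cultivars, TDC2 was higher in ZH11 lines before cold (0.71, adjusted p = 0.0202 in limma) and at 6 h (0.54, adjusted p = 0.0492). The first call was lost in 4 of the runs that left out 1 array (OE2, OE28, mutant 2 or the wild type before cold) and without quantile normalisation (adjusted p 0.0547 to 0.0966). The second was lost in 10 of the 12 such runs, all but those without the control before cold or mutant 2 at 6 h, and 5 other settings (0.34 to 0.57, adjusted p 0.0503 to 0.142). OASB1 was lower there at both times (-0.43 and -0.38), a call lost at 6 h between the control and wild type lines alone (-0.29, adjusted p = 0.132 in limma). The brighter probe set of DAHPS2 was lower there too (-0.49 and -0.57), while its other probe set differed by 0.56 and 0.46 in the opposite direction (adjusted p = 0.261 and 0.283 in limma). NAS1 (-5.12) and NAS2 (-4.54) were lower before cold, when the summed root markers were also lower in ZH11 lines. NAS1 lost this call in 5 runs that left out 1 array and NAS2 in 3, and both with the robust fit, and NAS1 was dim in 2 of the 3 ZH11 lines. Of the 8 root markers that passed the filter, 3 were higher and 5 lower in ZH11 lines before cold. The part of root tissue in the NAS1 and NAS2 values was not tested.

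The genes with a published name whose pattern over the 12 arrays lay closest to SK2, CYP71P1 and SAM2 were found by the root mean square difference of the normalised log2 values, each centred on its own mean. There were 2746 candidate probe sets of 2219 genes. For SK2 these were OsC3H54 at 0.16, OsSAPK9 at 0.20 and HCT2 at 0.20, beside a median of 0.46 over the candidates. For CYP71P1 they were OsRan1 at 0.16, COA20 at 0.16 and DAHPS1 at 0.18 (median 0.44), and for SAM2 they were DAHPS1 at 0.15, 4CL-3 at 0.17 and CAD at 0.17 (median 0.50). DAHPS1 was thus close to both CYP71P1 and SAM2, whose patterns carry the overexpression difference by which they were chosen. These likenesses describe 12 arrays that share lines and times.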

How the data were processed

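Biotin-labelled RNA of 12 samples was measured on 1 Affymetrix array each. The deposited values are linear intensities per probe set, 2.9 to 23434.8. How the authors summarised and normalised them is not given in the sources used here, and scanner files were not used here. Of 57381 probe sets, 123 controls were left out. The other 57258 were transformed to log2(intensity + 16), quantile normalised and kept where their mean reached the 40th percentile, which left 34355. R 4.3.3 with limma 3.58.1 (lmFit, eBayes with trend, two-sided, Benjamini-Hochberg over all kept probe sets, threshold 0.05) gave the tests. Genotype contrasts used 8 group means (4 residual df), cold and cultivar contrasts within cultivars used cultivar by time means (8 df), and cold in all lines used time with cultivar as a term (9 df). In the latter 2 models the residual holds differences between lines. The fit was tested on simulated data.

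Each line gave both arrays of a pair, as the labels show. Deviations of a line's 2 arrays from their group means correlated at 0.517 (overexpression) and 0.429 (mutants), and the line was fitted as a random and, for cold, a fixed block. The members and lists were chosen with earlier results of these data known. Genes were matched through the array annotation, updated through NCBI Gene IDs, where 22436 probe sets have 1 gene, 95 several and 34727 none. Of a gene's probe sets, the one with the highest mean is its main one. All members are named, related genes where called, the 3 largest per group in the overexpression comparison at 6 h, and the 3 closest patterns. Genes singled out beyond that (METK3, TDC2 at 6 h in the overexpression comparison, the root marker NAAT1, NAS1 and NAS2 in the mutants, the other probe sets of DAHPS2 and SAMDC) were chosen after their values were seen. ARD1 and ARD2, whose record also names another gene, were left out. The planned promoter motif search was not run and no sequence is shown. The precision is limited by the number of arrays. Alternatives were other normalisations, filters, pseudocounts, variance models, blocks and left-out arrays.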

Additional observations from a re-analysis of the deposited data

Results flagged for a closer look

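A signal outside the comparisons stood in the wild type, a control. The reporter probe set RPTR-Os-K01193-1_at read 2658.5 before cold and 3821.8 after 6 h in the Huayang wild type, above the 18.6 and 64.3 of the ZH11 control, and its part in the mutant comparisons was not tested.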

How the results depend on the processing

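Numbers here are counts of the 6 genes called, or the median log2 difference. Cold in all lines called 3, against 5 with the line as a random replicate block, 6 with a fixed block, 6 with 8 group means, and 2 to 5 leaving out 1 array (5 without the ZH11 control before cold). Cold in ZH11 lines called 1, against 3, 5 and 5 under these settings and 1 to 2 leaving out 1 array. Cold in Huayang lines called 1, against 4, 6 and 6, 5 with arrays of that cultivar only, and 1 to 2 leaving out 1 array. ZH11 against Huayang before cold called 0, against 1 with the random replicate block, 2 with 8 group means and 0 to 3 leaving out 1 array. At 6 h it called 1, against 4 with 8 group means, 0 to 4 leaving out 1 array (4 without the ZH11 control at 6 h), and 0 on the values as deposited, with median centring, no filter, a pseudocount of 64, no trend, robust eBayes, or control and wild type alone. The mutant comparisons and the cold by cultivar interaction called 0 in every setting. The median overexpression difference of 0.76 before cold was 0.83 as deposited and 0.89 with median centring, and that of 0.75 for the mean was 0.83, 0.87 and, with a pseudocount of 64, 0.68. The replicate block changed no other call of the 6 genes than those given here and in the results. The dim other probe sets gave opposite signs in part: SAM2 overexpression -0.092 before cold and -0.014 for the mean, CYP71P1 -0.13 at 6 h and -0.037 for the mean, and SAM2 in the cold 0.048. In the overexpression comparison they kept the sign for CYP71P1 before cold (0.056) and SAM2 at 6 h (0.063). Where no value shows it, the cause was not tested. With 1 control array per time, leaving it out removes the overexpression comparison at that time, so it has no value there. Dim signal limits SK1, ACS1, ACS2, NAS1, NAS2 and ASMT3.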
